A study of Mus musculus with 15 samples.

Results

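Solute carriers are membrane proteins that move amino acids, sugars, nucleosides, metal ions and other small molecules across the cell surface and organelle membranes. The carriers described here were all array probes whose gene symbol consists of Slc, a family number, the letter a and a member number, without Slc4a1, Slc11a2, Slc40a1 and Slc25a37, and whose detection p-value was under 0.05 on at least 3 of the 14 arrays with a leukemia label. Symbols with further letters, such as Slc9a3r1 or Slc5a4b, were not counted. This gave 200 probes of 152 genes, out of 426 probes of 285 carrier genes on the array and out of 14432 probes of 10474 genes that passed the same detection filter. The detection values chose the members, so they are given only as a description. Of the probes just inside the limit, 24 were detected on exactly 3 arrays, among them those of Slc30a10 and Slc5a3. Just outside, 22 were detected on exactly 2 arrays, among them one probe each of Slc1a5 and Slc41a2. A further 160 carrier probes were detected on none.

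Slc proteins work as uniporters, cotransporters or exchangers, and cells change which ones they carry as they differentiate. Red cell precursors are known for their need of glycine, which enters heme synthesis in the mitochondrion, and of iron. Dividing T cells are known to take up glutamine, nucleosides and glucose.

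The study profiled spleens of mice with leukemia on Illumina bead arrays that read total RNA. All mice belong to a Cbx7-overexpression model, in which the Polycomb protein Cbx7 is expressed above its normal level, and no spleen without overexpression was among the samples. By the labels, 7 mice had a T-cell leukemia (mice 2, 5, 4-1, 2-2, 5-1, 4-2 and 5-3), 4 an erythroid leukemia (mice 2-3, 5-5, 2-3-2 and 2-3-3) and 1 an undifferentiated leukemia (mouse 4-3). Mice 5-1 and 5-5 were each run on 2 arrays, which were averaged, and 1 further array carries no mouse or type. The RNA came from unsorted spleen cell suspensions and was amplified before labelling, so normal spleen cells are part of each sample, and fewer cells of a type and less RNA per cell cannot be told apart. The labels give no age, strain, sex or treatment, and the shared numbers in the mouse names are not explained, so the p-values measure the spread between mice of unknown relatedness.

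The leukemia labels were checked against marker genes. All 9 T cell markers tested were lower in the erythroid than in the T-cell leukemias, and 5 of 12 erythroid markers were higher, among them Kel, a blood group protein, and Hemgn, a nuclear protein of red cell precursors. The mean of the erythroid markers was 9.64 to 10.53 on the log2 signal scale in the erythroid leukemias, 5.29 to 9.53 in the T-cell leukemias and 9.51 in the undifferentiated one. T-cell mouse 2-2 had the highest erythroid mean of its group and the lowest T cell marker mean (7.30, against up to 9.62 in the others). Detected probes numbered 11278 to 12944 on the T-cell arrays, 7382 to 12605 on the erythroid arrays and 11699 on the undifferentiated array. The second array of mouse 5-5 (7382 probes) and the array of mouse 2-3-2 (7554 probes) stood apart, with 82 and 72 carrier probes detected where the other labelled arrays had 125 to 170. Over the 152 carriers, the repeat arrays differed by a median of 0.26 log2 units for mouse 5-1 and 0.53 for mouse 5-5.

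The promoters of 4 carriers are shown. In each direction they belong to the 2 genes with the largest change that passed the test without overlap between the leukemia types. Only genes with an entry in RefSeq's promoter table were eligible (GRCm38.p6, 250 bases before to 50 after the start, 5′ to 3′, first listed start). Slc6a9 (chr4:117835008-117835307, plus strand) and Slc20a1 (chr2:129198523-129198822, plus strand) were higher in erythroid leukemias. Slc2a9 (chr5:38483336-38483635, minus strand) and Slc9a9 (chr9:94669642-94669941, plus strand) were lower. Capitals mark the only matches to the motifs searched.
Slc6a9: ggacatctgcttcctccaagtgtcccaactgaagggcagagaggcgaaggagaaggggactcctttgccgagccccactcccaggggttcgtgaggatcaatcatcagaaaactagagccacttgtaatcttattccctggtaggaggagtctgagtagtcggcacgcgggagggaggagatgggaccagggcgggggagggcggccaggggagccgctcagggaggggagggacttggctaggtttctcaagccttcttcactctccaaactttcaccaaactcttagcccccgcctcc
Slc20a1: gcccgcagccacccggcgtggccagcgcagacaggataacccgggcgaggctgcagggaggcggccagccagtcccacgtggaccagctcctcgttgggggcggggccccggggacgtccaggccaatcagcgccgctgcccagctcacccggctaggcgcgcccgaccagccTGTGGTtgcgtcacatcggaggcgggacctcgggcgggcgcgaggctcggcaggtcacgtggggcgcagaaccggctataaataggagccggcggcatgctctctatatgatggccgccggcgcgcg
Slc2a9: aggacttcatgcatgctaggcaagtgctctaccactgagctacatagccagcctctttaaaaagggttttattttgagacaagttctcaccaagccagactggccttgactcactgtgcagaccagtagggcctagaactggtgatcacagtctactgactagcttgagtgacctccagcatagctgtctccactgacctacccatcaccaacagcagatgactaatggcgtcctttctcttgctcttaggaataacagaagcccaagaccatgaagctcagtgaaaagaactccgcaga
Slc9a9: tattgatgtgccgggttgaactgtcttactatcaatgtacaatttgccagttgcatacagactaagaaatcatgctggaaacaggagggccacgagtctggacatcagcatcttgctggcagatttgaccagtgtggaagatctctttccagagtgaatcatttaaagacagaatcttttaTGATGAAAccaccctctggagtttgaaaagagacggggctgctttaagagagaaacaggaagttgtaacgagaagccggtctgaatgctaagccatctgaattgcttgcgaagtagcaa
Both strands were searched for AGATAA or TGATAA, the core bound by GATA factors, CCACACCC, the CACCC box, TGATGNAA, an amino acid response core, TGTGGT, the RUNX core, and CTTTGA or CTTTGT, the TCF core. TGTGGT began at position -77 of Slc20a1, and TGATGAAA began at position -69 of Slc9a9, counted from the start. The GATA letters were in 0 of the 5 promoters listed for carriers higher in erythroid leukemias and in 0 of the 8 for lower ones, against 18 of the 118 carriers and 5122 of the 27025 genes with a promoter in the table (15.3% of the carriers). RUNX letters were in 1 of the 5 and 2 of the 8, against 16.9% of all genes. These counts describe short windows and leave other starts unread, since Slc6a9 has 3 promoters in the table.

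The first comparison asked which carriers distinguish erythroid from T-cell leukemias. With limma's moderated test and Benjamini-Hochberg adjustment over all 10474 genes, 6 of the 152 carriers were higher in the erythroid leukemias (3.95%, against 3.86% of all genes) and 13 were lower (8.55%, against 6.43%). The remaining 133 did not pass. The median log2 difference, erythroid minus T-cell, was -0.12 over the carriers and -0.03 over all genes. The groups did not overlap for 3 carriers with the erythroid mice on top (1.97%, against 2.51% of all genes) and for 13 with the T-cell mice on top (8.55%, against 4.71%), and 11 of these 16 also passed the test. The other 5, named because they complete this count, were Slc25a11, Slc30a7, Slc39a10, Slc5a3 and Slc6a6, with log2 changes of -0.54 to -0.91. Slc5a3 was detected on 3 and Slc39a10 on 6 of the 14 labelled arrays. Their erythroid means of 4.475 and 4.63 lay near background, so their changes rest on such values. The 13 with the T-cell mice on top include Slc9a9, which passed the filter through T-cell arrays alone. No conclusion is drawn from their share. Leaving out 1 mouse at a time gave 2 to 9 higher and 5 to 17 lower carriers, while the counts over all genes moved between 144 and 595 higher and between 322 and 895 lower. Of 34 genes with several member probes, 28 had none that passed, 5 had some and Slc25a38 had all, and none had probes that passed in opposite directions.

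**Figure D1:**
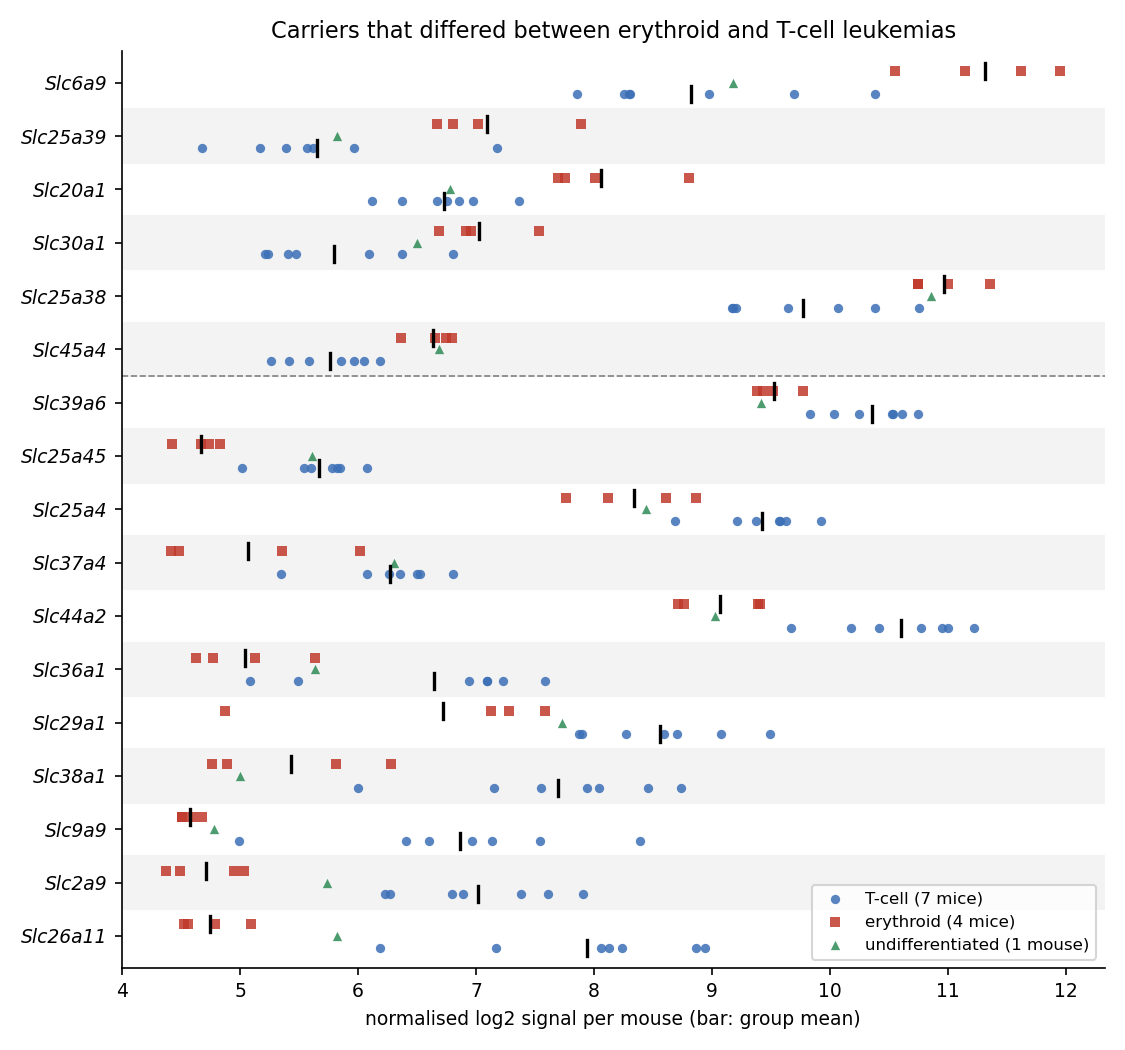
Normalised log2 signal (x axis) of 17 of the 19 carriers that passed the test between erythroid and T-cell leukemias, 1 row per gene. Blue circles are 7 T-cell mice, red squares 4 erythroid mice and green triangles the undifferentiated mouse, black bars are group means, and the 6 genes above the dashed line were higher in erythroid leukemias. For Slc6a9, Slc20a1 and Slc45a4 every red square lies to the right of every blue circle.

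Among amino acid carriers, Slc6a9 marked the erythroid leukemias. It encodes GlyT1, a sodium-dependent glycine importer. Its log2 signal was 10.55, 11.62, 11.95 and 11.15 in erythroid mice 2-3, 5-5, 2-3-2 and 2-3-3, and 7.86 at the lowest, 8.31 at the median and 10.38 at the highest in the T-cell mice. The groups did not overlap, and the nearest T-cell mouse was 2-2. The signal was 5.63-fold higher in erythroid leukemias (log2 change 2.49, SE 0.46, adjusted p = 0.0084). Within array numbers 1 to 8 the change was 2.03 (2 erythroid and 5 T-cell mice, adjusted p = 0.214, with 0 genes called among all), and within numbers 9 to 16 it was 2.66 (3 and 3 mice, adjusted p = 0.0473).

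A glycine carrier of the mitochondrion was also higher. Slc25a38 encodes a protein of the inner membrane whose loss in humans causes congenital sideroblastic anemia, a failure of heme synthesis. Its signal was 11.00, 11.36, 10.75 and 10.74 in the erythroid mice in the same order, and 9.17, 9.65 and 10.76 at the lowest, median and highest T-cell mouse. Only T-cell mouse 2-2 reached the erythroid range. The change was 1.19 (SE 0.33, 2.28-fold, adjusted p = 0.040), and all 3 of its probes passed in the same direction, with changes of 0.85, 1.19 and 1.96. Slc25a39, which carries glutathione into mitochondria, measured 6.67, 7.89, 7.01 and 6.80 in the erythroid mice against 4.67, 5.57 and 7.18 in the T-cell mice. The groups overlapped through mouse 2-2 alone, and the change was 1.44 (SE 0.41, adjusted p = 0.042).

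3 further carriers were higher in the erythroid leukemias. Slc20a1 encodes PiT1, a sodium-phosphate importer that also serves as a retrovirus receptor. It measured 7.69, 7.75, 8.80 and 8.00 in erythroid mice and 6.12, 6.76 and 7.36 in T-cell mice, without overlap, a 2.52-fold difference (log2 change 1.33, SE 0.28, adjusted p = 0.014). Slc30a1, the zinc exporter ZnT1 of the cell surface, measured 6.68, 7.53, 6.96 and 6.91 against 5.21, 5.47 and 6.80, again overlapping through mouse 2-2 (change 1.22, SE 0.33, adjusted p = 0.037). Slc45a4, of the sugar transporter family 45, measured 6.65, 6.36, 6.80 and 6.74 against 5.26, 5.86 and 6.19, with a smaller change of 0.88 (SE 0.23, adjusted p = 0.031) and no overlap. Without the 2 weak arrays Slc6a9 and Slc20a1 passed, and the other 4 had adjusted p-values of 0.061 to 0.074. Under median scaling of the arrays, where the median of all genes lay at -0.18, Slc6a9 was the only one of the 6 that still passed (change 2.75, adjusted p = 0.0080).

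Mouse 2-2 had the highest T-cell value for 5 of these 6 carriers, and for 58.4% of all 404 genes higher in erythroid leukemias. Mouse 5-1 was the highest for 19.8% of those genes and for 0 of the 6 carriers. Mouse 2-2 also had the highest erythroid marker mean of the T-cell mice (9.53), and the part of those cells in the carrier values was not tested. Without mouse 2-2, 9 carriers passed as higher and 15 as lower, and the counts over all genes rose to 595 and 832, from 404 and 674.

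**Figure D2:**
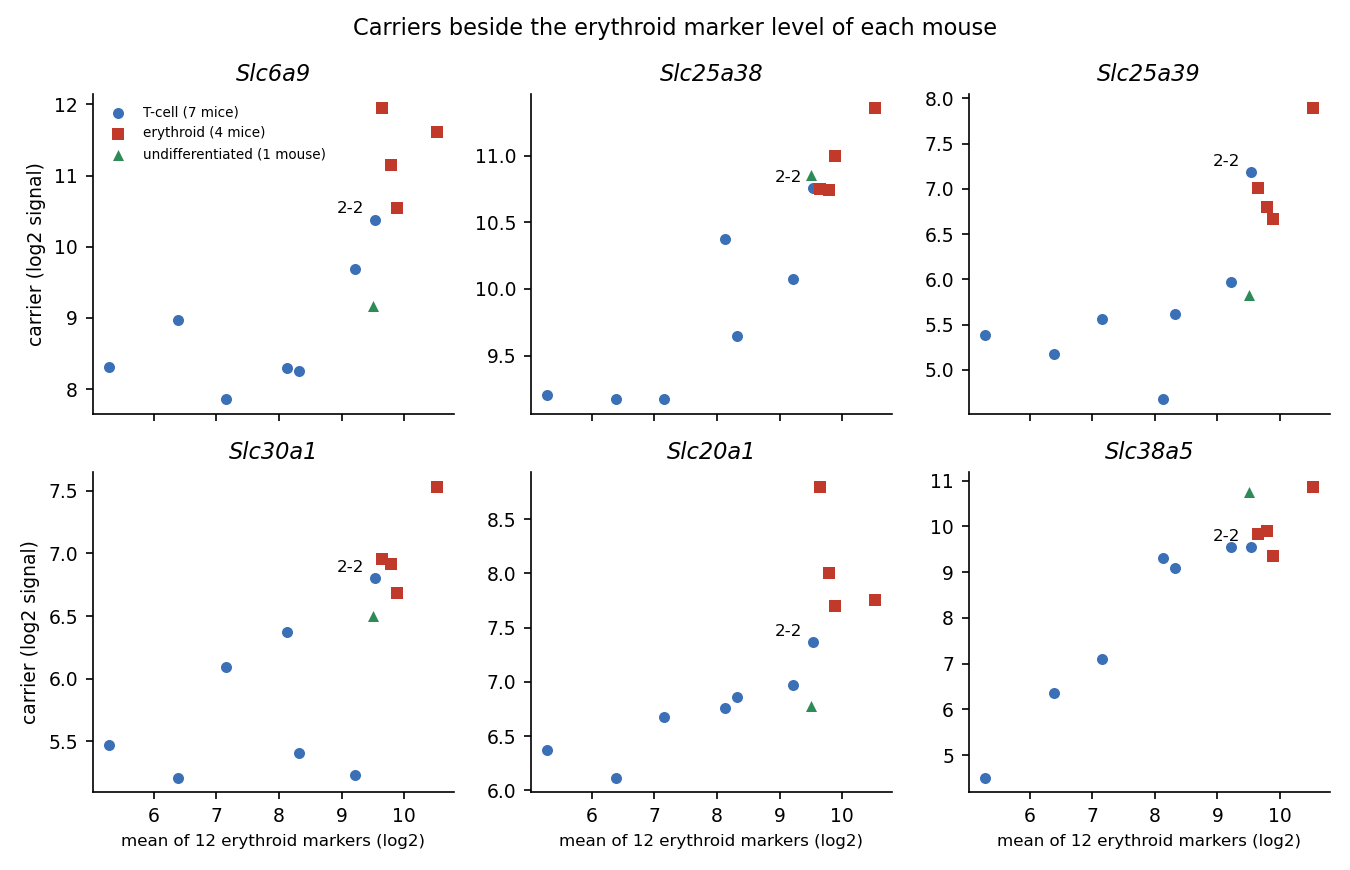
Signal of 6 carriers (y axes, log2) against the mean of 12 erythroid markers (x axes, log2) in each of 12 mice, with T-cell mouse 2-2 named. Mouse 2-2 lies near the erythroid mice on the x axis (9.53, against 9.64 to 10.53), and Slc38a5 is at its lowest in the T-cell mouse with the lowest marker mean.

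Slc26a11, an anion exchanger of the sulfate transporter family, was lower in the erythroid leukemias. Its signal was 5.10, 4.79, 4.52 and 4.56 in the erythroid mice and 6.19, 8.12 and 8.94 at the lowest, median and highest T-cell mouse. The groups were apart by more than 1 log2 unit, and the probe was detected on 1 of 5 erythroid arrays and 8 of 8 T-cell arrays. The log2 change was -3.20 (SE 0.45, adjusted p = 0.0025), a size that rests on erythroid values near background, with changes of -2.69 and -3.16 within array numbers 1 to 8 and 9 to 16. 3 other carriers were detected on no erythroid array, so they entered the list through the other arrays and their difference is a bound. Slc2a9, a urate transporter of the glucose transporter family, measured 6.23, 6.89 and 7.91 in T-cell mice and 4.37 to 5.03 in erythroid mice. It was at least 3.09-fold higher in T-cell leukemias (adjusted p = 0.0028). Its other probe, near background, had a change of -0.33 and did not pass. Slc9a9, a sodium-proton exchanger of endosomes, measured 4.99, 6.96 and 8.39 in T-cell mice and 4.51 to 4.68 in erythroid mice. It was at least 2.78-fold higher in T-cell leukemias (adjusted p = 0.013). Slc9a9 passed the detection filter through T-cell arrays alone. Without the T-cell arrays, Slc26a11, Slc2a9 and Slc25a45 would not have reached 3 arrays either. The entry of all these carriers into the list, Slc9a9 included, thus rested on the type in which they were high. Each also passed as lower in the alternative with no filter. Their entry is no support for the count of 13 lower ones. Slc25a45, of the mitochondrial family, measured 5.02, 5.78 and 6.07 in T-cell mice and 4.43 to 4.83 in erythroid mice. It was at least 1.22-fold higher in T-cell leukemias (adjusted p = 0.017). In all, 25 carriers were detected on T-cell but on no erythroid array. Slc30a10, a manganese exporter of the zinc transporter family, was detected on 3 erythroid arrays and no T-cell array. Its difference did not pass (adjusted p = 0.080). The share of all genes with either pattern was not counted. With 8 T-cell and 5 erythroid arrays, 2 of the latter weak, T-cell arrays alone meet the filter of 3 arrays more easily. No conclusion on the carriers is drawn from these counts.

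3 carriers of other substrates were also lower in the erythroid leukemias, each the only one of its family to pass in that direction. Slc38a1, a sodium-coupled glutamine importer, measured 5.81, 4.88, 4.76 and 6.27 in erythroid mice and 6.00, 7.94 and 8.73 in T-cell mice. The lowest T-cell mouse, again 2-2, fell within the erythroid range, and the log2 change was -2.26 (SE 0.48, adjusted p = 0.014). The probe was detected on 2 of 5 erythroid arrays, so its size rests partly on values near background. Slc29a1, the equilibrative nucleoside transporter ENT1, measured 7.13, 7.28, 4.87 and 7.58 against 7.87, 8.59 and 9.49. The groups did not overlap, and the very low value came from mouse 2-3-2, one of the weak arrays. The log2 change was -1.84 (SE 0.48, adjusted p = 0.031) and -1.06 without the weak arrays (adjusted p = 0.086). Slc44a2, a choline transporter-like protein, measured 9.40, 8.76, 9.39 and 8.71 against 9.67, 10.77 and 11.22, without overlap (change -1.53, SE 0.31, adjusted p = 0.011), and its other 2 probes did not pass (changes of -0.40 and -0.98).

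A zinc carrier and carriers of organelles were also lower. Slc39a6, the zinc importer ZIP6, measured 9.77, 9.43, 9.38 and 9.52 in erythroid mice against 9.83, 10.53 and 10.75 in T-cell mice (change -0.83, adjusted p = 0.035), and the groups did not overlap. Slc36a1, a proton-coupled amino acid exporter of lysosomes, was lower with a change of -1.61 (adjusted p = 0.044), with overlap between the groups and detection on 2 of 5 erythroid arrays. Slc37a4, which carries glucose 6-phosphate into the endoplasmic reticulum, and Slc25a4, an ADP/ATP carrier of mitochondria, were lower by smaller amounts (changes -1.20 and -1.09, adjusted p = 0.045 and 0.029), also with overlap, and Slc37a4 was detected on 2 of 5 erythroid arrays. Without the 2 weak arrays, 7 of the 13 lower carriers passed, and Slc29a1, Slc36a1, Slc37a4, Slc25a4 and Slc39a6 were among those that did not. Mouse 2-3-2 held the lowest erythroid value for 9 of the 13, and for 55.2% of all 674 lower genes.

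Sorted by substrate class, calls were few in each class. Classes follow the family number, so a member may carry something else. Of 29 mitochondrial carriers 2 were higher, 2 lower and 25 did not pass, with a median log2 change of -0.03. Of 28 amino acid and peptide carriers 1 was higher and 2 lower (median -0.10), of 16 zinc carriers 1 was higher and 1 lower (median -0.22), and of 11 sugar carriers 1 was higher and 1 lower (median -0.42). Exchangers of sodium against protons or calcium had 2 lower of 9 (median -0.11), and nucleoside carriers 1 lower of 7 (median -0.36). No member passed among 8 carboxylate carriers (median 0.25), where Slc16a6 was nearest with a change of 0.94 (adjusted p = 0.090). Its other 2 probes had changes of 1.61 (adjusted p over probes 0.041) and 0.15 (0.710). Nor did any pass among 12 organic ion and fatty acid carriers, where Slc27a6, a fatty acid transport protein, was nearest (adjusted p = 0.159). Slc27a6 was detected on 5 of 8 T-cell arrays and on no other labelled array, so it entered the list through them alone. Its mean was at least 1.31-fold higher in T-cell leukemias, but the groups overlapped. None of 4 carriers of other metals passed, where Slc31a2, of the copper carrier family, was nearest with -0.54 (adjusted p = 0.271). The mitochondrial family spanned -1.33 to 1.44, and the 2 ADP/ATP carriers measured there differed in call: Slc25a4 passed, while Slc25a5 had a change of -0.73 (adjusted p = 0.166).

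**Figure D3:**
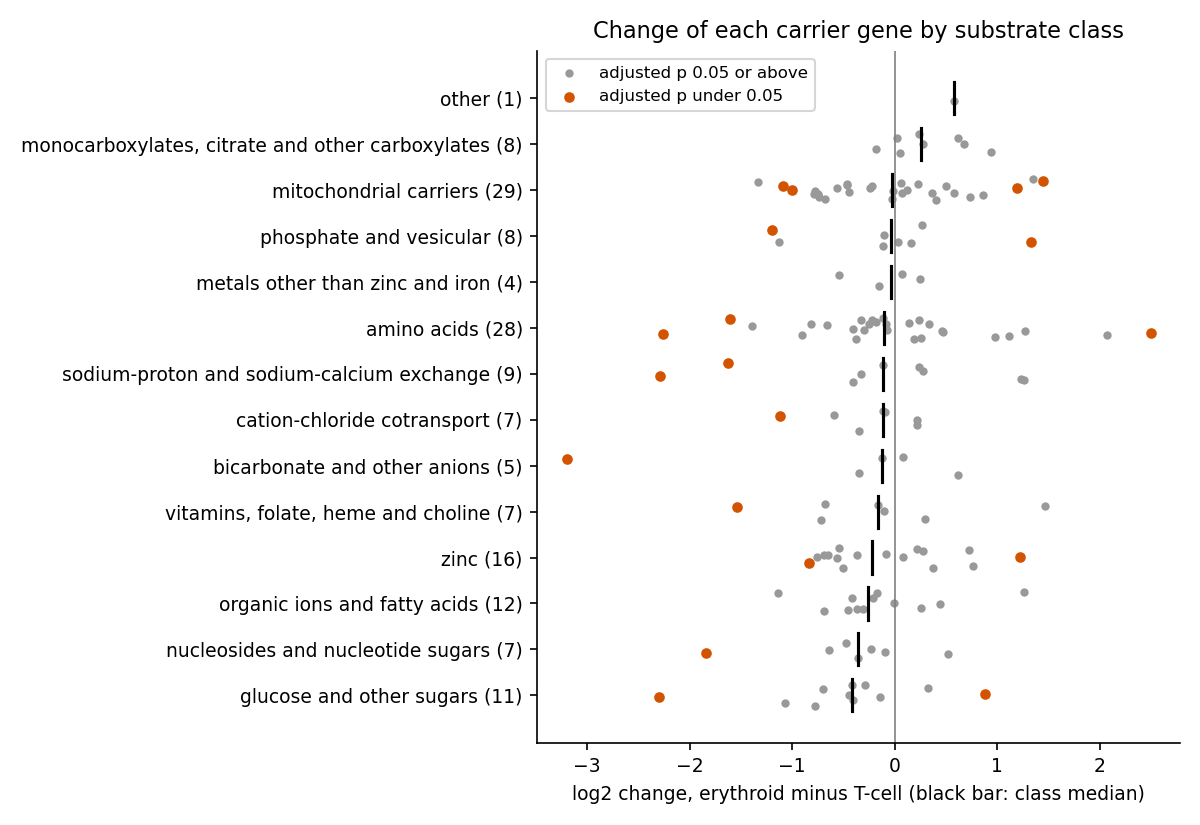
Log2 change, erythroid minus T-cell (x axis), of each of the 152 carriers in rows by substrate class, with the number of genes in brackets and black bars at the class medians. Orange points passed an adjusted p of 0.05 and grey points did not. Orange points lie on both sides of 0 for mitochondrial, phosphate and vesicular, amino acid, zinc and sugar carriers.

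Transport genes with other symbols gave context. Of 24 tested, 3 were higher in the erythroid leukemias and 2 lower, where 3.86% and 6.43% of all genes were. The higher ones were Abcb10 (change 2.36) and Abcb6 (1.97), ATP-driven transporters linked to heme synthesis, and Mfsd2b (1.53), a sphingosine 1-phosphate exporter of red cells. The lower ones were Slco4a1 (-2.81), an organic anion carrier, and Emb (-2.42), a partner of monocarboxylate carriers. Of 19 genes linked to ATF4, the factor that answers amino acid shortage and is known to act on several amino acid carriers, 3 were higher (Nupr1, Ppp1r15a and Aars) and 1 was lower (Ddit4), against the same shares of all genes. Markers of megakaryocytes had a mean of 6.22 to 7.78 in erythroid and 5.40 to 6.69 in T-cell mice with 0 of 6 called, and those of granulocytes, monocytes, B cells, natural killer cells, plasma cells and stroma had 0 called. Their part in the carrier results was not tested.

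The T-cell leukemias differed most among themselves in 5 carriers, chosen by their SD. The median SD over the 7 mice was 0.44 for carriers and 0.41 for all genes. Slc38a5, a glutamine, serine and glycine carrier, had an SD of 1.97. It measured 4.51 in mouse 4-2, 6.37 in 5-3, 7.11 in 5, 9.08 in 2, 9.30 in 4-1, 9.55 in 2-2 and 9.56 in 5-1. The 3 lowest mice were also the 3 with the lowest erythroid marker means (5.29, 6.39 and 7.16), and in the erythroid leukemias Slc38a5 was 9.35, 10.87, 9.84 and 9.90. Its difference between the types was 2.07 (SE 0.88) and did not pass (adjusted p = 0.145).

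Slc39a8, the zinc and manganese importer ZIP8, ran from 4.89 in mouse 5-3 to 9.57 in mouse 5-1 (SD 1.59), and erythroid mouse 2-3-2 lay at 4.73 where the other 3 lay between 8.49 and 9.37. Slc6a13, a GABA transporter, was high in mice 2-2 (8.03) and 4-1 (7.48) and at most 5.74 in the other 5. Slc15a1, the oligopeptide carrier PEPT1, was highest in mouse 4-2 (8.51), was detected on 5 of 8 T-cell arrays and on no erythroid array, and its difference did not pass (adjusted p = 0.181). Slc1a4, a neutral amino acid exchanger, was high in mice 4-1 (7.53), 4-2 (7.07) and 2-2 (6.71) and between 4.58 and 5.25 in the rest. The T-cell mice thus did not share 1 order over these genes.

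**Figure D4:**
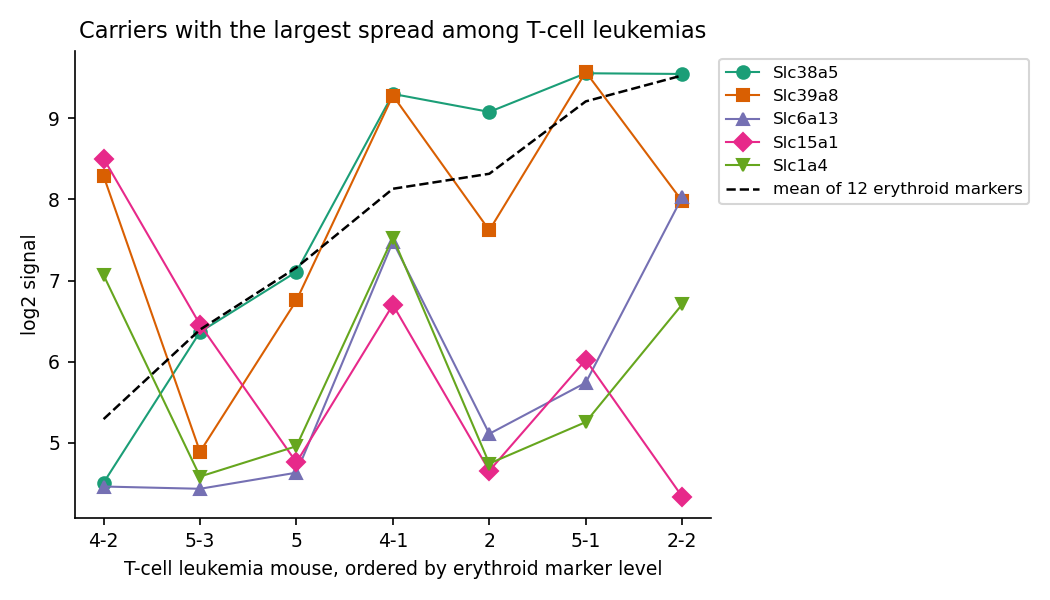
Log2 signal (y axis) of the 5 carriers with the largest SD among T-cell leukemias in each of the 7 mice (x axis), ordered by the mean of 12 erythroid markers (dashed line); connecting lines only guide the eye. Slc38a5 runs from 4.51 in mouse 4-2 to 9.56 in mouse 5-1, and Slc15a1 is highest in mouse 4-2.

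Among the 5 carriers with the highest mean signal were Slc11a1, Slc41a3 and Slc25a5, none of which passed. A probe's signal is no measure of one gene's abundance against another's. Slc11a1, the divalent metal carrier of phagocyte vesicles, measured 9.27 to 10.69 in erythroid and 9.33 to 10.82 in T-cell mice (change 0.07, SE 0.34). Slc41a3, a magnesium transporter of mitochondria, measured 9.94 to 10.75 and 9.10 to 11.11 (change -0.15, SE 0.33). The other 2 were Slc25a38 and Slc39a6, described above.

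The second comparison set the undifferentiated leukemia of mouse 4-3 against both other types, with 1 mouse whose spread is assumed to be that of the other groups. No carrier passed limma's test in either direction. Against T-cell leukemias, 0 of the 152 carriers were called, where 0% of all genes were called higher and 0.0191% lower. Against erythroid leukemias, 0 of the 152 carriers were called, where 0% of all genes were called higher and 0.00955% lower. The undifferentiated mouse lay above all 11 other mice for 16 carriers (10.5%, against 7.06% of all genes) and below all for 9 (5.92%, against 5.73%). All of these 9 except Slc15a2 were undetected in it, with signals under the lowest detected signal of its array (4.98). Some distances were very small, such as 4.566 against a next lowest value of 4.574 for Slc30a4.

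The carriers named from here on were chosen after their values were seen. Slc2a1, the glucose importer GLUT1, was not detected in the undifferentiated leukemia, where its signal was 4.82. It measured 7.85, 7.61, 8.29 and 7.05 in the erythroid mice and 6.77, 8.44 and 9.24 at the lowest, median and highest T-cell mouse, and was detected on all 13 arrays of those types. It was at least 8.94-fold higher in T-cell and at least 6.57-fold higher in erythroid leukemias, with adjusted p = 0.136 and 0.689. Slc15a2, the oligopeptide carrier PEPT2, measured 5.71 in the undifferentiated mouse and 6.80 or more in every other mouse. Slc7a6, a cationic amino acid exchanger, was not detected there (4.60) and measured 4.97 or more in the others. The lowest detected signal of that array was 4.98, so the distance of Slc7a6 to the next mouse lies within background.

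Other carriers had their highest value in the undifferentiated mouse. Slc45a3, of the sugar transporter family 45, measured 6.34 there and at most 5.48 elsewhere. Slc38a9, a lysosomal sensor of arginine, measured 7.43 there and at most 6.60 elsewhere, and Slc26a2, a sulfate transporter, measured 7.53 and at most 6.79. For 11 of the 16, the distance to the next mouse was under 0.5 log2 units.

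The 19 carriers that separated erythroid from T-cell leukemias were mixed in this mouse. Its value was nearer to the erythroid mean for 11 and nearer to the T-cell mean for 8. It lay within the erythroid range for 7, within the T-cell range for 9, within both for 1 of these and within neither for 4. The same counts over all genes that separated the types were not made, so the mixture is not shown to be particular to carriers. Slc25a38 was at 10.86 and Slc45a4 at 6.68, both within the erythroid range, while Slc6a9 was at 9.17 and Slc20a1 at 6.78, both within the T-cell range. Slc38a1 (5.00) and Slc44a2 (9.02) were within the erythroid range. Its erythroid marker mean (9.51) lay just under the erythroid range, and its T cell marker mean (5.34) lay within it.

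**Figure D5:**
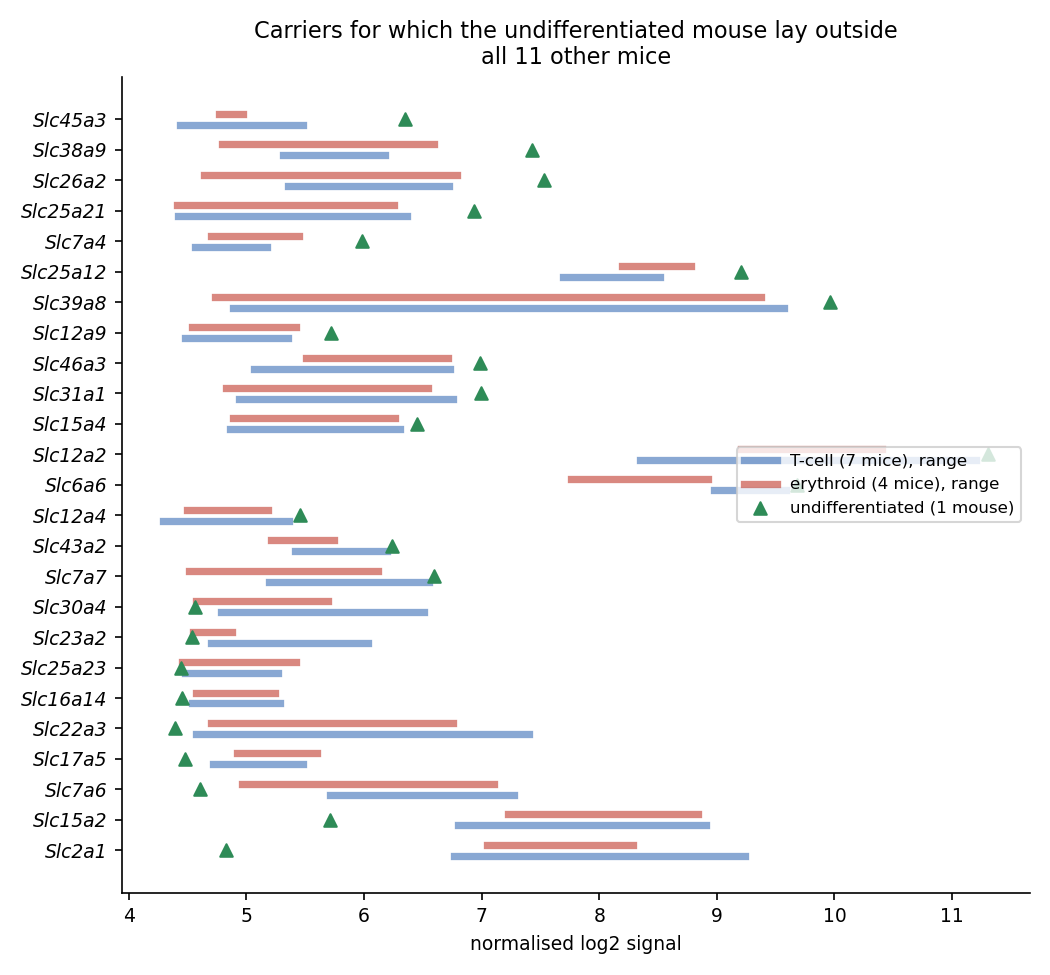
The 25 carriers for which the undifferentiated mouse (green triangle) lay outside all 11 other mice, with the range of the T-cell mice in blue and of the erythroid mice in red (x axis: normalised log2 signal). The triangle of Slc2a1 (4.82) lies farthest from the ranges, below a lowest other value of 6.77.

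The third comparison asked whether the erythroid minus T-cell difference varied between mice whose names begin with 2 and those that begin with 5. In limma's interaction contrast, the change for number 5 minus that for number 2 ran from -1.87 (Slc38a1, SE 1.11) to 3.09 (Slc22a4, SE 1.31) over the carriers. Mouse 5-5 was the only erythroid mouse with a name beginning with 5, and 1 of its 2 arrays was weak. The contrast therefore cannot decide whether the difference varied, and no conclusion is drawn from it.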

How the data were processed

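Spleen RNA of 12 mice was measured on 15 Illumina arrays, and 1 array without a mouse or type label was left out of all comparisons. The deposited non-normalized table gives a mean bead intensity per probe and array and a detection p-value for each, and per the file headers it also holds signal columns for the standard error and number of beads, which were not used, and per the submitters' processing notes the authors used limma in R 3.0.2. The authors' deposited processed table holds log2 values with column medians of 4.81 to 4.83, and each column had a correlation of 0.99998 or, after rounding, higher with the normalised values of the same array, which places it on a log2 scale. The depth of an array is limited by its number of detected probes.

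Here R 4.3.3 and its package limma 3.58.1 were used, and neqc (offset 16) corrected the intensities for background and set all arrays to the same quantiles. Probes detected (p under 0.05) on at least 3 of 14 labelled arrays were kept, symbols were updated through RefSeq, arrays of 1 mouse were averaged, and the probe with the highest mean stood for its gene. lmFit and eBayes were run with leukemia type as the only term, and adjusted p-values cover all 10474 genes at a threshold of 0.05. Where a gene was undetected on all arrays of a group, its fold difference was given as a bound against the lowest detected signal of each array. The procedure was also run on simulated data with planted changes and independent noise for each gene and mouse. These data held no weak arrays and no related mice, so the run does not speak to those limits. Same-numbered mice of the 2 main types did not deviate together (correlations of -0.294 to 0.384 over 9 pairs). Pairs with different numbers gave -0.439 to 0.404 over 19 pairs, so the numbers were not treated as pairs. Mice within a type were not compared in this way. Erythroid mice 2-3, 2-3-2 and 2-3-3 share the opening of their names, and whether they are independent leukemias is unknown.

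The members, gene lists and tests were chosen with earlier results of these data known. Named carriers were those that passed without overlap and, in each substrate class, the one with the smallest adjusted p, per direction where called. Further ones were the 5 with the highest mean, the 5 with the largest SD among T-cell mice, and the extremes of families with calls both ways. Slc36a1 is outside that rule. Some carriers that passed are not reported here by name. Alternatives covered the normalisation, background, filter, weak arrays, array number, name number and each mouse left out.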

Additional observations from a re-analysis of the deposited data

Results flagged for a closer look

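In 60 groups of carrier values tested, 4 held a mouse far from the rest of its group by Dixon's criterion, where chance gives about 1 in 20. Slc29a1 was 4.871 in erythroid mouse 2-3-2, a weak array, and 7.126 to 7.581 in the other 3. Slc15a1 was 4.378 in erythroid mouse 2-3 and 4.554 to 4.581 in the others, all near background. Slc31a2 was 6.710 in T-cell mouse 2-2 and 5.161 to 5.588 in the other 6. Slc41a3 was 9.096 in T-cell mouse 5-1, the average of 2 arrays, and 10.45 to 11.11 in the others.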

How the results depend on the processing

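No named carrier that passed changed direction under the 28 alternatives. Slc6a9, Slc26a11, Slc2a9 and Slc9a9 passed in 26 of them. The counts below cover any carrier that passed in a setting. Of the 19 carriers that passed the main test, 8 passed with median scaling and 9 without the 2 weakest arrays. The counts of 6 higher and 13 lower became 1 and 8 with median scaling. Among all genes, 404 higher and 674 lower became 90 and 427 there. The carrier counts became 3 and 9 with no filter (189 and 390 among all) and 4 and 7 without the 2 weakest arrays (231 and 359). With array weights they became 17 and 17 (937 and 1051). They became 0 and 0 within array numbers 1 to 8 (2 erythroid mice, 0 and 0 among all) and 2 and 2 within 9 to 16 (44 and 135). With the number that opens the mouse name as a replicate block they became 0 and 2 (11 and 98 among all), and Slc2a9 (adjusted p = 0.018) and Slc26a11 (0.034) were those 2. Leaving out each mouse in turn gave 2 to 9 higher and 5 to 17 lower. The higher count was 2 without T-cell mouse 2, 5 or 4-2 or erythroid mouse 2-3-2 or 2-3-3, and 3 without T-cell mouse 5-3 or erythroid mouse 5-5. The lower count was 5 without erythroid mouse 5-5, 6 without T-cell mouse 5, and 7 without T-cell mouse 2, 4-2 or 5-3 or erythroid mouse 2-3-2. In the undifferentiated leukemia, 1 carrier was lower than in T-cell leukemias with array weights and 1 without T-cell mouse 2-2; leaving out each mouse gave 0 to 1. The cause of these changes was not tested. The 4 erythroid mice, 2 of them with a weak array, and the 1 undifferentiated mouse limit the precision.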

Other observations

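The array without a mouse or type label had a T cell marker mean of 9.51 and an erythroid marker mean of 7.49 on the log2 scale. On it Slc6a9 measured 8.15, Slc25a38 9.43, Slc26a11 5.75, Slc2a9 6.68, Slc38a1 8.62 and Slc2a1 7.68.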
